A study of Mus musculus with 4 samples.

Results

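The GATA, TAL1 and LMO2 erythroid regulators are transcription factors and cofactors that direct blood progenitors into the red cell, megakaryocyte and mast cell lineages. The group was fixed by name and holds 10 genes (Gata1, Gata2, Gata3, Tal1, Lyl1, Lmo2, Ldb1, Zfpm1, Klf1 and Nfe2) of 21887 protein-coding genes in the mouse RefSeq table of GRCm38.p6 (mm10). Each gene was read through the H3K27ac peaks that overlap its span extended by 20 kb on each side. H3K27ac is acetylation of lysine on the tail of histone H3 and is found at active promoters and enhancers. The series holds 4 samples from bone marrow of C57BL/6 mice, of which 1 ChIP library is labelled control, 1 is labelled BN1, and 2 are inputs that were not analysed here. The cells were CD45.2+ and sorted for cKit, the stem cell factor receptor. The control group is labelled cKit(+) and the BN1 group cKit(+) BRD9-NUTM1, a leukaemia fusion that joins a bromodomain subunit of a chromatin remodelling complex to a testis protein that recruits the acetyltransferase p300. Neither age, nor the route by which the fusion was introduced, nor any pooling of animals is given in the labels.

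Each group had 1 library, so no value below has a replicate error or a p-value, and read depth is unknown. The control-labelled list held 28343 peaks over 31.0 Mb and the BN1-labelled list held 19148 peaks over 19.1 Mb. The peak names inside the lists run against the labels (the list of the control sample carries the prefix BRNU, that of the BN1 sample BM), and the extraction text speaks of BN1 cells for every sample. Directions below therefore belong to the labels. Ptprc, which encodes CD45, had peaks within its span in both lists, whereas Kit, which encodes the sorting marker, lacked a peak within 20 kb in either. The stem cell marker gene Cd34 lacked a peak within its span in either list. With the 20 kb flanks, peaks covered 4784 bp at Cd34 in the control-labelled list and 1697 bp in the BN1-labelled list. Shares of cell types and acetylation per cell cannot be told apart in such bulk samples.

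In red cell precursors GATA1 and TAL1 bind neighbouring GATA and E-box motifs together, and LMO2 and LDB1 bridge them into a complex that can join distant enhancers to promoters. ZFPM1 (FOG1) is the cofactor that binds GATA factors directly. GATA2 works in stem cells and mast cells before GATA1 replaces it, GATA3 is chiefly a T cell factor, and LYL1 is the close relative of TAL1. KLF1 binds CACCC motifs in globin and red cell membrane genes, and NFE2 works with small MAF proteins in red cells and megakaryocytes.

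The scaffold genes were acetylated in both lists, Gata1 and Gata2 had no peak of their own in either, and Gata3 had peaks in the control-labelled list only. Within the gene spans, Nfe2, Zfpm1 and Klf1 had at least 2-fold longer coverage in the BN1-labelled list. Acetylated length, the number of bp in the window covered by peaks, summed to 35621 bp over 30 peaks in the control-labelled list and to 39748 bp over 30 peaks in the BN1-labelled list. Gata2 was the only regulator without a peak in either list, as were 33.1% of all protein-coding genes. By bp, 6 regulators were longer in the BN1-labelled list (Tal1, Lmo2, Ldb1, Zfpm1, Klf1 and Nfe2) and 3 in the control-labelled list (Gata1, Gata3 and Lyl1). A gene was called longer where its length was at least 2-fold that in the other list and at least 500 bp. By that rule 1 of 10 was called in the BN1-labelled list (Nfe2), against 5.65% of all genes, and 2 of 10 in the control-labelled list (Gata1 and Gata3), against 21.1% of all genes. With 10 genes, these counts lie near the background and are no result about the group.

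**Figure D1:**
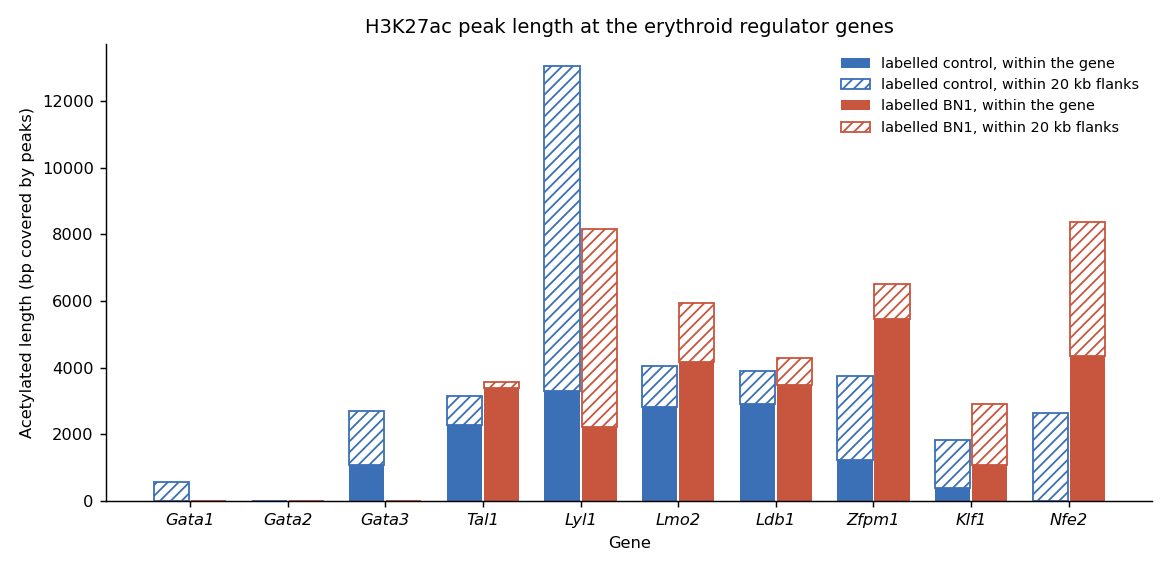
Bars show the bp covered by H3K27ac peaks at each of the 10 regulators, blue for the control-labelled list and red for the BN1-labelled list. The solid part lies within the gene and the hatched part in the 20 kb flanks. At Nfe2 the BN1-labelled list reaches 8380 bp with 4335 bp inside the gene, and the control-labelled list reaches 2645 bp with none inside.

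Much of the control length at these windows lay at neighbouring genes. Within the 10 gene spans alone the control-labelled list covered 14032 bp and the BN1-labelled list 24142 bp. Peaks that touched a regulator's own span or listed promoter made up 46.5% of the window length in the control-labelled list (10 of 30 peaks) and 70.7% in the BN1-labelled list (15 of 30). Within the spans, 6 genes had a peak in both lists (41.6% of all genes did), Gata3 had one in the control-labelled list only (8.15% of all genes), Nfe2 in the BN1-labelled list only (3.99%), and Gata1 and Gata2 in neither (46.2%). By span, 3 regulators were called longer in the BN1-labelled list (Zfpm1, Klf1 and Nfe2, against 4.61% of all genes) and 1 in the control-labelled list (Gata3, against 15% of all genes). Per Mb of each list's covered length, which allows for the shorter list labelled BN1, 4 were called in that list (Lmo2 in addition, against 11.2% of all genes) and 2 in the control-labelled list (Gata1 and Gata3, against 12.7% of all genes). The median difference over the 10, BN1 minus control, was 401 bp, beside 0 bp over all genes and -580 bp over the 14637 genes with a peak in either list.

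**Figure D2:**
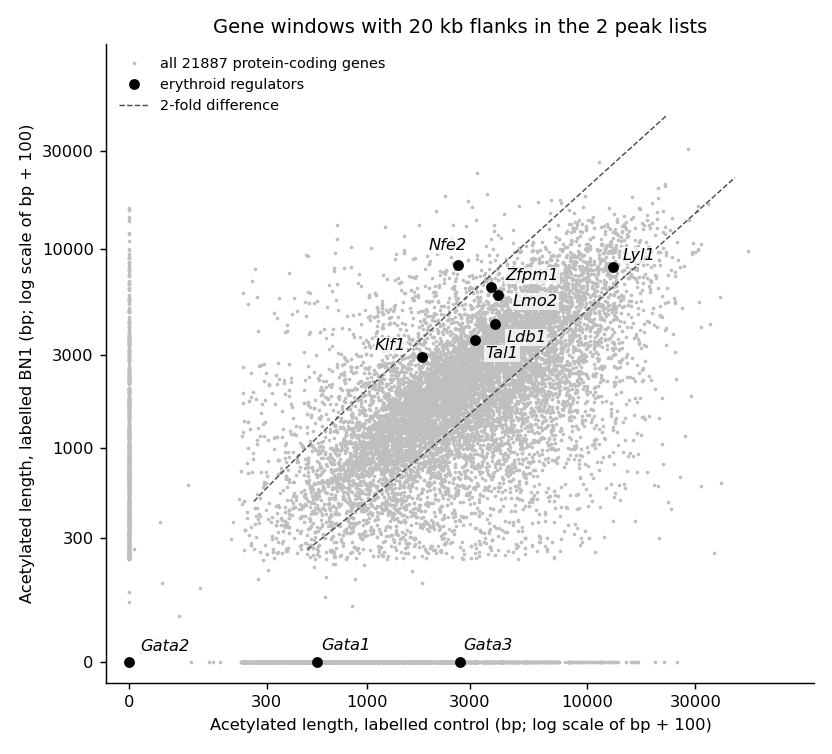
Each grey point is 1 of 21887 protein-coding genes, placed by acetylated length in the control-labelled list (x axis) and in the BN1-labelled list (y axis), both on a log scale of bp + 100. Black points are the regulators and dashed lines mark a 2-fold difference. Nfe2 lies above the upper line, Gata1 and Gata3 lie at 0 bp on the y axis, Gata2 lies at 0 bp on both axes, and the other 6 lie between the lines.

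A peak was called shared where at least 1 bp overlapped a peak of the other list. In the regulator windows 63.3% of the control peaks were shared (19 of 30, 95% exact interval 43.9 to 80.1) and 66.7% of the BN1 peaks (20 of 30, 47.2 to 82.7). Over the whole lists the shares were 41.2% and 62.6%. The intervals cover counting error only and treat the peaks as independent, although 7 of the 30 in each list lay in the Lyl1 window. The difference from the whole lists was not tested. Shared peaks had the higher fold enrichment, the authors' ratio of the summit to the caller's background, within each list: a median of 10.2 against 4.64 in the control-labelled list and of 8.81 against 4.61 in the BN1-labelled list. Of the 10 unshared BN1 peaks, 5 lay at Nfe2, 2 at Lmo2 and 1 each at Tal1, Zfpm1 and Klf1. Of the 11 unshared control peaks, 3 lay at Zfpm1, 2 each at Gata3, Tal1 and Lyl1, and 1 each at Gata1 and Lmo2.

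RefSeq promoters (GRCm38.p6, 250 bases before to 50 after a start) matched 8 of the 10 regulators with 12 starts. Lmo2 and Nfe2 had no entry. A peak touched the promoter in both lists at 6 of the 12 starts (35.4% of 21263 starts of protein-coding genes), in the control-labelled list only at 1 (Gata3, 6.91%), in the BN1-labelled list only at 1 (Klf1, 3.46%) and in neither at 4 (Gata1, both starts of Gata2 and the innermost start of Ldb1, 54.2%). The 250 bases before the start are shown for Klf1 and Gata3, whose promoters were acetylated in 1 list only, and for the shared promoters of Tal1, Lyl1, Zfpm1 and Ldb1, which had the longest peaks. They are written 5′ to 3′ on the strand of the gene, and capitals mark GATA motifs (AGATAA or AGATAG, and TGATAA or TGATAG) and E-boxes of the form CAGNTG, searched on both strands.
Klf1: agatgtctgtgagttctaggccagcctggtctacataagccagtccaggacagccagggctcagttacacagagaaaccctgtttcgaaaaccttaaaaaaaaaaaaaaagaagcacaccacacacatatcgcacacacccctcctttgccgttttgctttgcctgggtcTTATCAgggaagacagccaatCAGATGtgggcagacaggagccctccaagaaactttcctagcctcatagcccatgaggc
Tal1: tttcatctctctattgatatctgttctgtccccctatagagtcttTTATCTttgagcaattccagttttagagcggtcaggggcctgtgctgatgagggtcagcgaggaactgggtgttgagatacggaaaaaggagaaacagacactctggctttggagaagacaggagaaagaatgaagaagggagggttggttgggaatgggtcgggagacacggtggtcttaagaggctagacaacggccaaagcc
Lyl1: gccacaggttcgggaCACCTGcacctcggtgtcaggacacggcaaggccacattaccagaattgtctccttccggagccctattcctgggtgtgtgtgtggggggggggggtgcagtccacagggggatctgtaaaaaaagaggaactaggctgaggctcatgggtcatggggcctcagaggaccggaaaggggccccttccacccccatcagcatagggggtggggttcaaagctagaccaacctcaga
Zfpm1: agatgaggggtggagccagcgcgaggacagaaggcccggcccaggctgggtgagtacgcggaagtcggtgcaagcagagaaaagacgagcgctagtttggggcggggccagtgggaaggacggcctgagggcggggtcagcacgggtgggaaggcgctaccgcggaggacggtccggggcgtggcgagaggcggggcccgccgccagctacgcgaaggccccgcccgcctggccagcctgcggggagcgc
Ldb1: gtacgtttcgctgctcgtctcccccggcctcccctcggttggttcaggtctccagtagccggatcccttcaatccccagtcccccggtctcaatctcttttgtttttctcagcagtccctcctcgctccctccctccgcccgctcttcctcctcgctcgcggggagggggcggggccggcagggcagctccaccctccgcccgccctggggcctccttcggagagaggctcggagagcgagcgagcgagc
Gata3: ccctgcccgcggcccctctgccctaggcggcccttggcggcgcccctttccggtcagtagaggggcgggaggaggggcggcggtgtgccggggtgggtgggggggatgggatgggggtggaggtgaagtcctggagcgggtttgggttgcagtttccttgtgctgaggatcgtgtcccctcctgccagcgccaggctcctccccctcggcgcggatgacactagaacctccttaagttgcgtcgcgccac
The stretches are chr8:84901732-84901981 (plus strand) for Klf1, chr4:115056176-115056425 (plus) for Tal1, chr8:84701207-84701456 (plus) for Lyl1, chr8:122281891-122282140 (plus) for Zfpm1, chr19:46039622-46039871 (minus) for the middle of 3 Ldb1 starts and chr2:9878601-9878850 (minus) for Gata3. Klf1 held a GATA motif (TTATCA as read on the gene strand) that begins 80 bases before the start and an E-box (CAGATG) that begins 59 bases before it, and these motifs do not overlap. Tal1 held a GATA motif 205 bases before its start, and Lyl1 an E-box 235 bases before. The stretches of Zfpm1, Ldb1 and Gata3 held neither. Over all 12 starts, 3 had a GATA motif, beside 23.6% of 21263 starts, and 3 had an E-box, beside 42.0%. A loose CACCC-type pattern (CCNCNCCC, both strands) was found at 10 of 12, beside 52.9%. It also matches G-rich letters without CACCC, such as GGGGGGGG at Gata2 and Lyl1 and GGGCGGGG at Zfpm1. The count is therefore not one of CACCC itself. The NF-E2 core TGAGTCA (both strands) was found at none, beside 4.06%. GC content of the stretches shown ran from 48.8% at Tal1 to 73.2% at Zfpm1. Such matches describe letters in these windows and not binding.

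Among the GATA factors, Gata1 (chrX:7959260-7976663, minus strand) had 567 bp in the control-labelled list and none in the BN1-labelled list. The whole 567 bp was 1 unshared peak at chrX:7948139-7948705 with a fold enrichment of 6.57, within 1000 bp of an end of the neighbouring deacetylase gene Hdac6, so no peak in either list touched Gata1 itself. Gata2 (chr6:88193891-88207032, plus strand) had no peak in either list, nor had it one with flanks of 50 kb. Gata3 (chr2:9857078-9887953, minus strand) had 2701 bp in 2 peaks in the control-labelled list and none in the BN1-labelled list. Its promoter peak of 1088 bp (chr2:9878415-9879502) had a fold enrichment of 10.4, higher than in 71.4% of the peaks of its list, with the summit 179 bases before the start. The other peak, of 1613 bp (chr2:9888959-9890571), lay beyond the upper end, upstream of the gene, with a fold enrichment of 5.27. Both remained at −log10 q ≥ 10. Gata3 is a T cell gene. By their windows 4 of 9 T cell markers were called longer in the BN1-labelled list (Cd3e, Cd3d, Cd3g and Cd2, against 5.65% of all genes). In the control-labelled list 1 was called (Cd4, against 21.1% of all genes). The windows of Cd3d and Cd3g held the same lengths (1693 bp labelled control, 3398 bp labelled BN1). Within the spans 3 of the 9 markers had a peak in the control-labelled list (Cd3d, Cd4 and Lck, 2082 bp for all 9). In the BN1-labelled list 2 had one (Cd3d and Cd2, 3329 bp). Cd3e, Cd3g, Cd8a, Bcl11b and Tcf7 were at 0 within the span in both. The part of T cells in the Gata3 difference was not tested.

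The bHLH genes were acetylated at their starts in both lists. Tal1 (chr4:115056426-115071755, plus strand) had 3152 bp in the control-labelled list and 3576 bp in the BN1-labelled list, a 1.13-fold difference. A shared peak over both listed starts measured 2001 bp in the former (fold enrichment 14.2, above 82.6% of its list) and 2458 bp in the latter (8.44, above 60.6%). Fold enrichments rank peaks within a list and are not compared between lists. The control-labelled list also had unshared peaks of 599 bp within the gene and 552 bp that began 3368 bp beyond its upper end, and the BN1-labelled list had 1 of 1118 bp with its summit 1211 bp past the second start. All of these were weak, with fold enrichments of 3.40 to 4.91. The Tal1 difference was -142 bp at −log10 q ≥ 5 and -1155 bp with 50 kb flanks.

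Lyl1 (chr8:84701423-84704716, plus strand) had the longest acetylation of the group in the control-labelled list, at 13061 bp, and was next to Nfe2 in the BN1-labelled list, at 8145 bp, each with 7 peaks. These lengths exceeded those of 98.2% and 97.9% of all genes. In the control-labelled list 1 peak of 5215 bp (chr8:84700792-84706006, fold enrichment 15.8) covered all 3294 bp of the gene and ran past its upper end. In the BN1-labelled list that stretch was split among peaks of 3443, 547 and 902 bp, of which the first, over the promoter, had a fold enrichment of 17.4 and reached farther upstream. All 7 BN1 peaks and 5 of 7 control peaks were shared. The remaining peaks lay at Trmt1, Nacc1 and Nfix, which crowd this window, and per Mb the sign of the difference turned, to 5.01 bp per Mb longer in the BN1-labelled list.

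The bridging factors Lmo2 and Ldb1 kept their main peaks in both lists. Lmo2 (chr2:103957903-103981878) had 4032 bp in the control-labelled list and 5944 bp in the BN1-labelled list, 1.47-fold longer. Its strongest peak lay within the gene and coincided in the lists, with 2818 bp (chr2:103968753-103971570, fold enrichment 19.3, above 91.1% of its list) in the control-labelled list and 2559 bp (chr2:103969010-103971568, 24.8, above 90.6%) in the BN1-labelled list. The BN1-labelled list alone had a wide, low peak of 2377 bp over the lower end of the gene (chr2:103957134-103959510, fold enrichment 3.96, above only 15.3% of its list). At −log10 q ≥ 10, where this peak and 3 smaller ones of the window are not kept, the Lmo2 difference was -1205 bp. A further pair of peaks below the gene, of 946 and 702 bp, was shared.

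Ldb1 (chr19:46031525-46048145, minus strand) had 3910 bp in the control-labelled list and 4288 bp in the other, 1.10-fold longer in the BN1-labelled list. Of the bp covered in either list, 79.3% were covered in both, the highest share of the group, and all 3 peaks of each list were shared. The outer promoter had peaks of 1271 bp in the control-labelled list and 1189 bp in the BN1-labelled list, and the middle promoter, printed above, had 1639 and 2300 bp. Within each list the middle promoter stood differently: its peak was above 19.0% of control peaks (fold enrichment 4.24) and above 68.8% of BN1 peaks (10.5). The third peak lay at an end of Pprc1. With 50 kb flanks, which take in Armh3, Hps6 and Nolc1, the difference was -2860 bp.

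Zfpm1, the FOG1 gene (chr8:122281856-122337862, plus strand), had 3739 bp in 6 peaks in the control-labelled list and 6495 bp in 3 peaks in the BN1-labelled list, 1.74-fold longer. Within the gene the lengths were 1238 and 5472 bp, 4.42-fold longer in the BN1-labelled list. That length was mostly 1 peak of 5820 bp (chr8:122281222-122287041), wider than 99.8% of the peaks of its list, which ran from upstream of the promoter into the gene with the summit 2713 bp past the start (fold enrichment 9.17). In the control-labelled list the same place held only peaks of 389 and 398 bp just before and at the start, with fold enrichments of 6.65 and 8.42. Only 9.82% of the bp covered in either list were covered in both, the lowest share among the regulators with a peak in both lists. A further 3 control peaks, of 245, 1131 and 1128 bp, were unshared with fold enrichments of at most 4.07.

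Klf1 (chr8:84901982-84905291, plus strand) had 1814 bp in 2 peaks in the control-labelled list and 2920 bp in 3 peaks in the BN1-labelled list, 1.61-fold longer. Within the gene it had 394 and 1075 bp, 2.73-fold longer in the BN1-labelled list. The promoter peak of 858 bp (chr8:84901392-84902249), over the GATA motif and E-box printed above, was present only in the BN1-labelled list, with a fold enrichment of 4.79 and a −log10 q of 8.13. A peak inside the gene was shared, with 394 bp in the control-labelled list (fold enrichment 3.97) and 807 bp in the BN1-labelled list (5.86). The promoter peak was above 28.8% of the peaks of its list, and the peak inside the gene above 15.7% in the control-labelled list and 42.6% in the BN1-labelled list, so all were among the weaker peaks. The strongest peak of the window, 1420 and 1255 bp, lay at the nuclease gene Dnase2a and was shared.

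Nfe2 (chr15:103248212-103258403) showed the largest difference of the group, 2645 bp in the control-labelled list against 8380 bp in the BN1-labelled list, 3.17-fold longer. The BN1-labelled list had 5 unshared peaks, of 3232, 407, 696, 1101 and 381 bp, which followed each other from chr15:103252887 to 103260523 across the upper part of the gene and past its upper end. They summed to 5817 bp. The first had a fold enrichment of 15.8, above 80.9% of its list, and the others 4.43 to 10.7. The control-labelled list had no peak there. All 3 of its peaks were shared and lay at neighbours: 1767 and 421 bp at Hnrnpa1 and Cbx5, and 457 bp at Copz1. The BN1 length exceeded that of 98.0% of all genes and the control length that of 69.2%. With 50 kb flanks Nfe2 was no longer called (difference 3422 bp), and that window took in 4 control peaks 46158 to 49122 bp beyond its upper end.

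**Figure D3:**
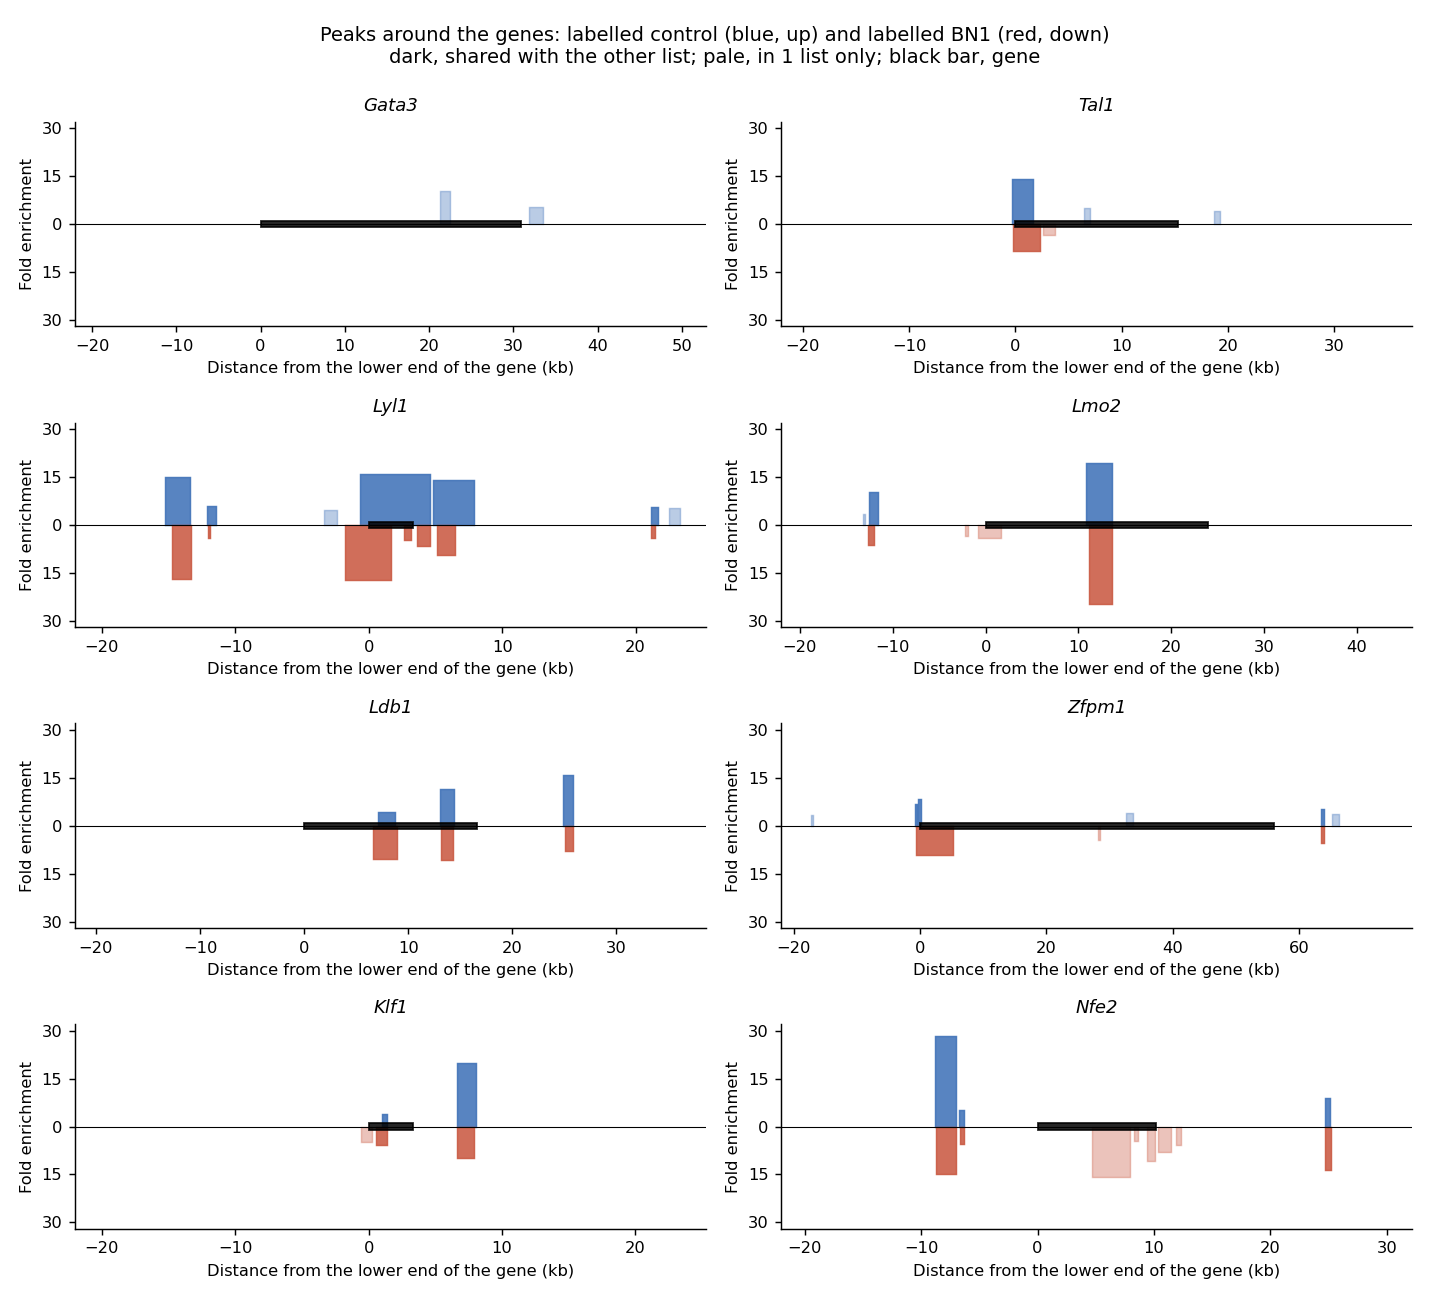
Each panel maps the peaks around 1 regulator by distance from the lower end of the gene (kb, black bar), with the control-labelled list drawn upward in blue and the BN1-labelled list downward in red. Height is the authors' fold enrichment, which ranks peaks within a list only, and pale boxes are peaks in 1 list only. The 5 pale BN1 peaks of Nfe2, the 5820 bp BN1 peak of Zfpm1 and the 2 pale control peaks of Gata3 stand out against the paired peaks of Tal1, Lyl1, Lmo2 and Ldb1.

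Markers of other cells also differed between the lists, in both directions. Of all genes, 5.65% were called longer in the BN1-labelled list and 21.1% in the control-labelled list. All 6 neutrophil markers (S100a8, S100a9, Ngp, Ltf, Camp and Cxcr2) were called longer in the BN1-labelled list. Their spans held 13563 bp there and 484 bp in the control-labelled list, where all but S100a8 were at 0. Of 6 B cell markers, 4 were called in the BN1-labelled list and Cd79a in neither. Ms4a1 was called in the control-labelled list (650 against 0 bp in its window). The spans of all 6 held 12373 bp in the BN1-labelled list and 0 bp in the control-labelled list. Of 5 macrophage markers, 4 were called longer in the control-labelled list. Adgre1 was called in neither (window of 2685 bp labelled control, 2476 bp labelled BN1). The spans of all 5 held 11851 bp in the control-labelled list and 591 bp in the BN1-labelled list, where only Csf1r was above 0. Of 8 megakaryocyte markers, 3 had a peak within the span in the control-labelled list (Pf4, Itga2b and Vwf, 4484 bp) and only Vwf in the BN1-labelled list (1933 bp), while Gp9, Gp1ba, Gp6 and Ppbp were among those at 0 in both. By windows, Itga2b and Vwf were called in the control-labelled list and Gp9 in the BN1-labelled list (2181 against 0 bp). Of 7 mast cell and basophil markers, only Hdc had a peak within the span, in the BN1-labelled list (11798 bp), where it was called. Cpa3, Ms4a2, Fcer1a, Cma1, Tpsb2 and Mcpt8 were at 0 within the span in both, and Ms4a2 was called in the control-labelled list by its window (718 against 0 bp). The part of these cells in the differences at Nfe2, Zfpm1 and Klf1 was not tested.

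The complex partners are proteins that bind the regulators or work beside them, such as E proteins, SSBP proteins and small MAF proteins. Of 16, 4 were called longer in the BN1-labelled list (5.65% of all genes) and 4 in the control-labelled list (21.1% of all genes). The former were Mafk, the small MAF partner of NFE2 (2490 against 6430 bp, control first here and below), Gfi1b, a repressor of red cell and platelet precursors (1343 against 5104 bp), Cbfa2t3, the ETO2 corepressor of the TAL1 complex (1832 against 4955 bp), and Ssbp2, an LDB1 stabiliser (1055 against 3628 bp). No peak lay within the Gfi1b span in either list, so its length came from the flanks. Within the Mafk span the control-labelled list was the longer (1787 against 1659 bp), so the BN1 excess of Mafk also lay in the flanks. The latter were the E protein genes Tcf4 (11334 against 3359 bp) and Tcf12 (3410 against 1513 bp), Bach1, a haem-regulated repressor (4868 against 2009 bp), and Zfpm2, the relative of Zfpm1 (2041 against 0 bp), which also stands among the relatives below. The median difference was -1596.5 bp but 73.8 bp per Mb, so the direction for the 16 turned with the scale. It turned likewise over the 14637 genes with a peak in either list, from -580 bp to 10.6 bp per Mb. Per Mb, 7 were called in the BN1-labelled list (11.2% of all genes) and 2 in the control-labelled list (12.7%).

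The 18 erythroid targets are genes of haem, membrane and iron handling that GATA1 and KLF1 are known to drive. Their median difference was 0 bp and 36.3 bp per Mb, beside -580 bp and 10.6 bp per Mb over the genes with a peak in either list. Of the 18, 6 were called longer in the BN1-labelled list (5.65% of all genes) and 2 in the control-labelled list (21.1% of all genes). Aqp1, a water channel (0 against 2306 bp), Car2, a carbonic anhydrase (0 against 2223 bp), Epb42, a membrane skeleton protein (399 against 2000 bp), Tspan33 (0 against 1552 bp) and Ermap, a red cell membrane protein (480 against 1982 bp), led the former. The latter were Bcl2l1, a survival gene of many cells (23751 against 9172 bp), and Slc25a37, the mitochondrial iron importer mitoferrin (4544 against 1935 bp), and neither was called per Mb. Within the gene span, 13 of 18 had a peak in the BN1-labelled list, beside 45.6% of all genes, and 7 in the control-labelled list, beside 49.8%. The summed span length went the other way, with 34510 bp in the control-labelled list and 22745 bp in the BN1-labelled list. Of these, Bcl2l1 alone held 21481 and 6497 bp.

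Of 10 relatives of the regulators that serve mostly in other tissues, none was called longer in the BN1-labelled list, beside 5.65% of all genes, 3 were called in the control-labelled list, beside 21.1% (Zfpm2, Tal2 with 1567 against 0 bp and Gata4 with 674 against 0 bp), and 5 had no peak in either (Gata5, Gata6, Lmo1, Lmo3 and Ldb2). Lmo4 was the only relative with a peak within its span in both lists. Its window held 5045 bp in the control-labelled list and 4424 bp in the BN1-labelled list.

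**Figure D4:**
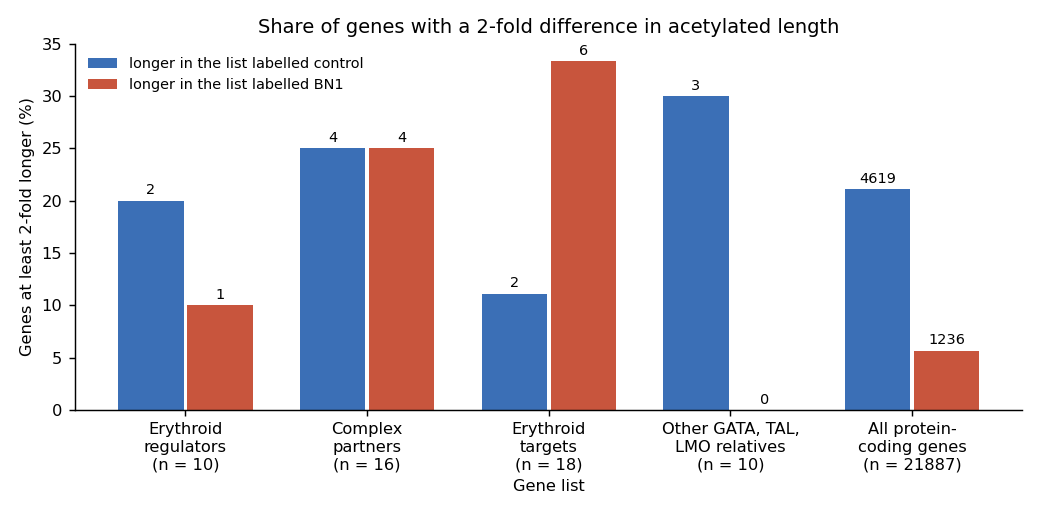
Bars give the share of genes in each list that were at least 2-fold longer in the control-labelled list (blue) or labelled BN1 (red), with the number of genes above each bar. The erythroid targets reached 6 of 18 in the BN1-labelled list, and the regulators themselves 1 of 10, beside 1236 of 21887 genes in all.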

How the data were processed

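H3K27ac was profiled by fanChIP and sequencing, per the labels' protocols. The submitters' processing notes name mm10 (GRCm38) as build, and as tools MACS3 3.0.1, deepTools 3.5.1, Picard 3.2.0 and Bowtie2 2.5.4, without role or order. The caller's threshold, any input subtraction and any pooling: not given in the sources used here. In the deposited lists a peak has a fold enrichment (a ratio), the −log10 of its p-value and q-value, and a score, which was not used. Groups follow the sample titles.

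Acetylated length is the bp covered by peaks in a gene span with 20 kb flanks, taken from RefSeq GRCm38.p6. A gene was called at a 2-fold difference with at least 500 bp in the longer list, over all protein-coding genes. The members, the lists and the tests were chosen with earlier results of these data known. All 10 members are named, and from each other list up to 5 called genes per direction with the largest differences. Promoters were printed by peak length, up to 4. Those of Klf1 and Gata3, further genes of the other lists and the marker genes were named after their values were seen. Values of some listed genes are left out of the text. Peak lengths, calls and sharing were tested on simulated data. Alternatives covered flanks of 0 and 50 kb, a −log10 q of at least 5 and 10, lists of equal length (19148 peaks), bp per Mb and an overlap of at least 50% of either peak. Software was scipy 1.17.1, pandas 2.3.3, numpy 2.4.6 and matplotlib 3.10.9 under Python 3.11.15.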

Additional observations from a re-analysis of the deposited data

How the results depend on the processing

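Regulators called longer in the BN1-labelled list numbered 1 in the main setting, 3 without flanks (4.61% of all genes), 0 with 50 kb flanks (5.74%), 3 at −log10 q ≥ 5 (5.83%), 2 at 10 (6.09%), 3 with lists of equal length (7.26%) and 4 per Mb (11.2%). Those called in the control-labelled list numbered 2, but 1 without flanks (15% of all genes) and 1 at −log10 q ≥ 10 (18.8%), where Gata1 lost its call. Of all genes, 20.1% were called there at −log10 q ≥ 5, 17.6% with lists of equal length and 12.7% per Mb. Complex partners called in the BN1-labelled list numbered 7 per Mb. Those called in the control-labelled list numbered 2 at −log10 q ≥ 5, 2 with lists of equal length and 2 per Mb, against 4. Erythroid targets called in the BN1-labelled list numbered 3 at −log10 q ≥ 10, against 6, and those in the control-labelled list 1 at that setting, 0 with lists of equal length and 0 per Mb, against 2. Relatives called in the BN1-labelled list numbered 1 with 50 kb flanks, and those in the control-labelled list 1 at −log10 q ≥ 10, against 3. The shared share of regulator peaks stayed between 54.0% and 80.0% (control-labelled list) and between 53.3% and 70.6% (BN1-labelled list) under 6 alternatives each, within the intervals of the main values. In sign, Nfe2, Zfpm1 and Klf1 were longer in the BN1-labelled list under all 6 alternatives, and Gata3 in the control-labelled list under all 6. The sizes for Zfpm1 and Klf1 moved. The Klf1 difference was 1106 bp in the main setting, 247 bp with 50 kb flanks and 1500 bp at −log10 q ≥ 5. That of Zfpm1 was 2756, 3136 and 5260 bp in the same order. Neither gene was called in the main setting or with 50 kb flanks, and Klf1 was not called at −log10 q ≥ 10. Beyond the narrower or wider windows and fewer peaks that the settings themselves bring, the cause was not tested. The lists hold no read counts, so a region absent from a list may have been below detection. With 1 library per group no replicate could be left out. No paired analysis was possible because each group has 1 library.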

Other observations

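Between 20 and 50 kb from the genes, 12 control peaks were unshared and 8 shared, and 3 BN1 peaks were unshared and 7 shared. Over the whole lists 41.2% of control peaks and 62.6% of BN1 peaks were shared. The counts lie near those shares and are no result about the group. The 3 unshared BN1 peaks measured 270 and 1186 bp at Lyl1 and 255 bp at Zfpm1. Of the unshared control peaks, 5 lay at Lyl1 (1047 bp), Lmo2 (734 bp), Ldb1 (322 and 282 bp) and Klf1 (750 bp), and the other 7 at Tal1, Gata3 and Nfe2. A peak of 1579 bp (chr4:115095741-115097319) lay 23986 bp beyond the upper end of Tal1, away from any protein-coding gene end or span by more than 1000 bp, and was found only in the control-labelled list, with a fold enrichment of 7.08. Past Gata3, 2 peaks of 597 and 393 bp beside Taf3 were present only in the control-labelled list. Beyond the upper end of Nfe2, 4 peaks of 218 to 1459 bp were present only in the control-labelled list. The first of these, chr15:103304561-103306019, had a fold enrichment of 14.5, and the last 2 lay within 1000 bp of Gpr84, a fatty acid receptor gene of myeloid cells. The Nfe2 neighbourhood therefore held an unshared stretch in each list, inside and next to the gene in the BN1-labelled list and farther beyond its upper end in the control-labelled list. The immediate early gene Ier2, near Lyl1, had a shared peak of 4279 bp in the control-labelled list and 5432 bp in the BN1-labelled list.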
